A study of Caenorhabditis elegans with 14 samples.

Results

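Abundant piRNAs are described here in *Caenorhabditis elegans* adults that carry a mutation in PASH-1, the RNA-binding partner of the ribonuclease Drosha in the Microprocessor. A piRNA counted as abundant when its mean deposited level over the 7 wild-type libraries was at least 10 rpm (reads of the piRNA per 1000000 reads of the library). This left 847 of the 15363 annotated piRNAs (5.51%), among 23869 small RNA features of all classes. Wild-type levels therefore chose the members, and those levels are given as a description with no test.

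Small RNAs were sequenced from whole gravid hermaphrodite adults of *pash-1(ram33[G179R])*, a line with a missense allele from a chemical mutagenesis screen that had been outcrossed to N2, and from wild-type N2 adults. Both strains were grown from L1 larvae on *E. coli* OP50, for 72 h at 20 °C (3 mutant and 3 wild-type libraries) or for 54 h at 25 °C (4 mutant and 4 wild-type libraries). The sequencing was done to measure mature miRNAs across the mutant, and the same libraries hold the piRNAs. The whole adults included their germline and any embryos they held. The study reports fewer progeny from mutants than from wild-type at the higher temperature, with part of the mutants sterile. It also states that developmental defects at that temperature limit what individual miRNAs can show. Germline and embryo content may therefore differ between the strains, and it was not measured here. In these whole-animal samples, a change in germ cell number and a change in piRNA per germ cell cannot be told apart.

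In *C. elegans*, piRNAs are called 21U-RNAs, for their length in nucleotides and the uridine at their 5′ end. Each is trimmed from its own short capped transcript by a route that uses neither Drosha nor Dicer, methylated at its 3′ end by HENN-1 and bound by the Argonaute PRG-1 in the germline. There, PRG-1 and a piRNA that pairs with a transcript call in RNA-dependent RNA polymerases, which make secondary siRNAs of the 22G class. WAGO Argonautes use one group of these to silence their targets, and CSR-1 binds another group that matches genes expressed in the germline.

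All 847 members lay on chromosome IV in the WBcel235 annotation, as did 95.5% of the other piRNAs, and each was annotated as a 21-nt feature. Of the members, 796 (94.0%) were between 13 and 18 Mb and 51 (6.02%) between 4 and 7 Mb, the regions that held 74.2% and 19.1% of the other piRNAs. They were spread over both strands, with 413 on the plus and 434 on the minus strand. Outside protein-coding genes lay 552 members (65.2%), 278 lay in introns, and 17 (2.01%) overlapped an exon, against 6.32% of the other piRNAs. The 5′ ends of 419 members (49.5%) were within 20 nt of the 5′ end of another annotated piRNA, against 41.9% of the other piRNAs. These shares were not tested.

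The members held 84.6% of all piRNA rpm in wild-type, and their wild-type means ran from 10.0 to 1329 rpm with a median of 25.8 rpm. There were 338 members of 10 to 20 rpm, 279 of 20 to 50 rpm, 120 of 50 to 100 rpm, 85 of 100 to 300 rpm and 25 of 300 rpm or more. The 8 most abundant held 12.3% of the members' rpm and the 100 most abundant held 52.2%. Depth was estimated from the step between low values at 16400000 to 23400000 reads per library, so that 10 rpm stood for 164 to 234 reads. The lowest value of any member in any library was 3.18 rpm. Within a strain and temperature, wild-type replicates 1 and 3 at 20 °C and mutant replicate 4 at 25 °C stood furthest from the others. Over the members, the SD of their log2 ratio to those others was 0.24, 0.26 and 0.25, against 0.13 to 0.16 for the rest. Just above the threshold were 21ur-8662 (10.03 rpm), 21ur-6950 (10.04 rpm) and 21ur-2379 (10.04 rpm), and just below it 21ur-6041 (9.97 rpm), 21ur-8109 (9.96 rpm) and 21ur-1762 (9.96 rpm).

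At 25 °C the abundant piRNAs as a group were higher in *pash-1(ram33[G179R])* mutants than in wild-type. Summed over the 847 members, the deposited level was 62085, 69980, 67788 and 59397 rpm in mutants, against 33839, 37158, 33218 and 34170 rpm in wild-type. Every mutant library was above every wild-type library, by 1.87-fold on average (exact permutation test, two-sided, p = 0.0286, the smallest that 4 against 4 libraries allow, and the same after adjustment over 5 measures). After median-of-ratios scaling of all features, the difference was smaller. The sum was then 52720 ± 1516 rpm in mutants and 42423 ± 1093 rpm in wild-type (SD), 1.24-fold higher in mutants and without overlap. The ratio to other small RNAs of the same library does not depend on how libraries are scaled. Relative to CSR class 22G siRNAs, the members' sum was 4.76, 4.79, 5.19 and 4.57 in mutants and 1.93, 2.40, 2.23 and 2.11 in wild-type, 2.23-fold higher in mutants. Relative to WAGO class 22G siRNAs it was 35.2 ± 2.37 in mutants and 22.7 ± 1.82 in wild-type (SD, n = 4 each), a 1.55-fold difference, and relative to miRNAs it was 0.0894 ± 0.00964 in mutants and 0.0414 ± 0.0022 in wild-type, a 2.15-fold difference. The libraries did not overlap in any of these 3 ratios, each again with an exact permutation p of 0.0286. The miRNA sum itself was lower in mutants, at 700722 to 763305 rpm against 832132 to 841148 rpm in wild-type. All rpm of a library share 1 total. The part of the miRNA sum in this ratio and in the deposited rpm of the members was not tested.

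At 20 °C the difference was smaller and depended on what the members were set against. The members summed to 72906, 82754 and 79383 rpm in mutants and to 61741, 67052 and 67894 rpm in wild-type, 1.19-fold higher in mutants with no overlap. An exact permutation test of 3 against 3 libraries cannot give a p below 0.1, which is the value it gave here (0.167 after adjustment over the 5 measures). Relative to CSR class 22G siRNAs, the values of 4.86, 5.48 and 4.75 in mutants and 4.34, 5.10 and 5.28 in wild-type overlapped (exact permutation p = 0.8). The ratio to WAGO class 22G siRNAs overlapped as well (47.8 ± 2.63 in mutants and 46.2 ± 3.05 in wild-type, SD, n = 3 each, exact permutation p = 0.5). The ratio to miRNAs was 0.104 ± 0.00873 in mutants and 0.0813 ± 0.00481 in wild-type, without overlap. Here too the miRNA sum was lower in mutants, at 737963 to 768192 rpm against 797589 to 813142 rpm in wild-type. After median-of-ratios scaling of all features, the direction of the sum turned round, to 68934 ± 718 rpm in mutants and 74378 ± 2544 rpm in wild-type.

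**Figure D1:**
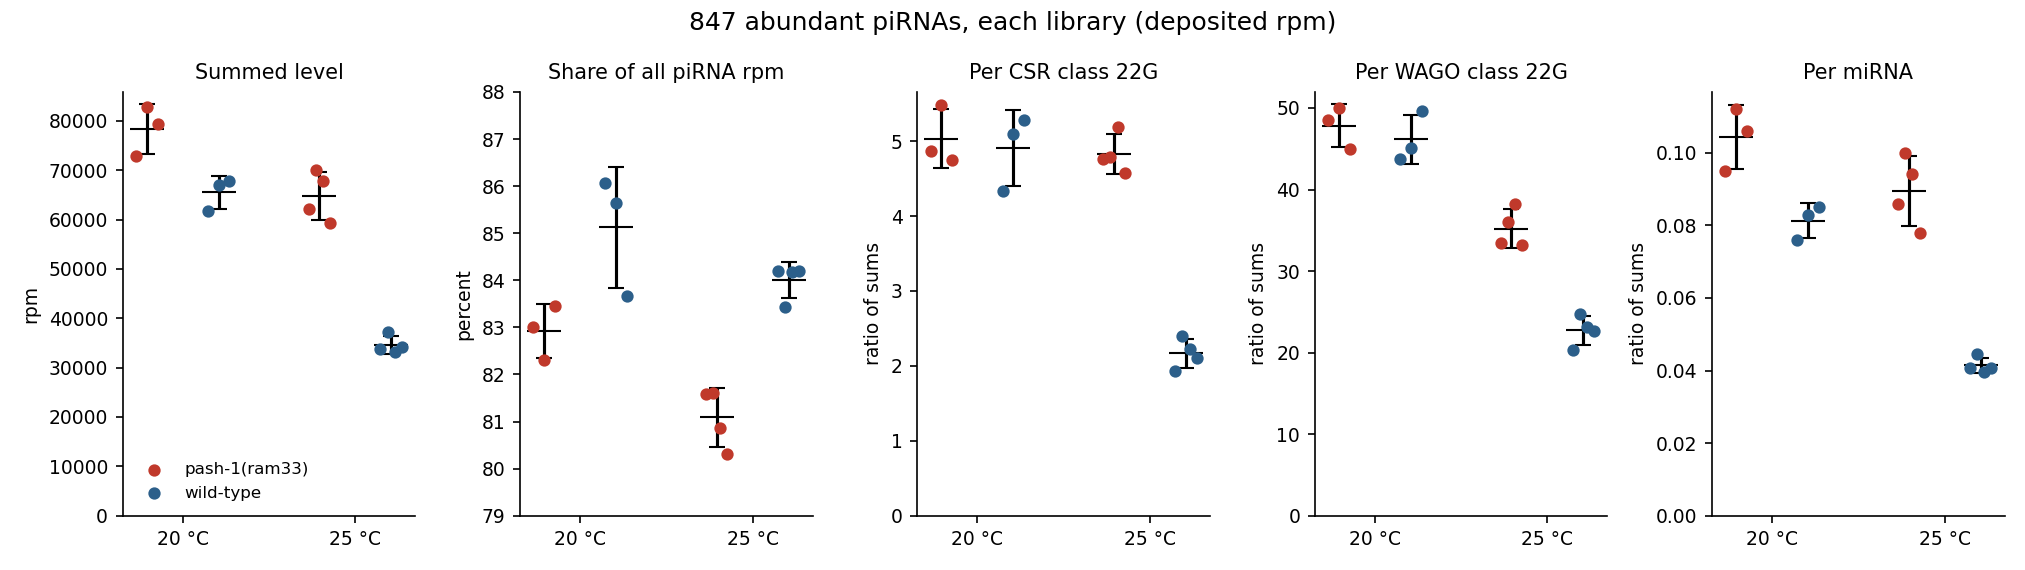
The 847 abundant piRNAs in each library at 20 °C and 25 °C: their summed rpm, their share of all piRNA rpm in percent, and the ratio of their sum to those of CSR class 22G siRNAs, WAGO class 22G siRNAs and miRNAs. Points are libraries and bars the mean ± SD, with mutants left of wild-type. At 25 °C the mutants (59397 to 69980 rpm) lie above wild-type (33218 to 37158 rpm), whereas at 20 °C the ratios to both 22G classes overlap. The axis of the share starts above 0.

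The abundant piRNAs took a slightly smaller share of all piRNA rpm in mutants at both temperatures. The share at 25 °C was 81.6%, 81.6%, 80.9% and 80.3% in mutants, against 84.2%, 83.4%, 84.2% and 84.2% in wild-type (exact permutation p = 0.0286). At 20 °C it was 82.9% ± 0.572 in mutants and 85.1% ± 1.29 in wild-type (SD, n = 3 each, exact permutation p = 0.1), and the libraries did not overlap. Since wild-type levels chose the members, the share was computed again with members chosen only on wild-type libraries of the other temperature. The log2 difference between mutants and wild-type was then -0.05 at 25 °C and -0.04 at 20 °C, with the same exact permutation p at each temperature. This choice still rests on wild-type levels, and a set picked for high wild-type levels tends to take a smaller share in mutants. The p-values therefore cannot show a smaller share apart from the choice of members. The 14516 other piRNAs summed to 15099 ± 966 rpm in mutants and 6597 ± 528 rpm in wild-type at 25 °C, 2.29-fold higher, and their 20 °C sums were 16148 ± 1469 rpm in mutants and 11497 ± 1650 rpm in wild-type, 1.40-fold higher.

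Other small RNA groups with a known tissue of origin differed between strains as well. The 8 miR-35 family members are found in embryos, but as miRNAs they are also products of the Microprocessor, so less embryo RNA and less processing cannot be told apart in their levels. They summed to 58334 to 69869 rpm in mutants and 191318 to 214892 rpm in wild-type at 25 °C, and to 90252 to 102353 rpm in mutants and 168187 to 187147 rpm in wild-type at 20 °C. In mutants all 8 were below wild-type in every library at 25 °C, while at 20 °C 5 of the 8 were, miR-38-3p and miR-40-3p overlapped and miR-42-3p was above. They are part of the miRNA sum to which the piRNAs were set above. The ALG class 26G siRNAs, which act in the sperm-producing germline, summed to 2015 to 2598 rpm in mutants and 213 to 316 rpm in wild-type at 25 °C, a ratio of 9.24, and to 477 to 575 rpm in mutants and 246 to 368 rpm in wild-type at 20 °C. The ERGO class 26G siRNAs, of oocytes and embryos, summed to 1120 to 1319 rpm in mutants and 881 to 1008 rpm in wild-type at 25 °C, and to 1487 to 1631 rpm in mutants and 782 to 957 rpm in wild-type at 20 °C. The sum of CSR class 22G siRNAs lay below wild-type in mutants at 25 °C (12996 to 14623 rpm in mutants and 14906 to 17553 rpm in wild-type) and above it at 20 °C (14990 to 16696 rpm in mutants and 12847 to 14240 rpm in wild-type). By contrast, the sum of WAGO class 22G siRNAs lay above wild-type in mutants at both temperatures. It was 1776 to 1940 rpm in mutants and 1437 to 1663 rpm in wild-type at 25 °C. The 20 °C values were 1503 to 1767 rpm in mutants and 1369 to 1487.5 rpm in wild-type. Of 3 somatic miRNAs, miR-1-3p of muscle and let-7-5p overlapped between strains at both temperatures. The third, lin-4-5p, was at 1735 to 2343 rpm in mutants and 1255 to 1333 rpm in wild-type at 25 °C, a ratio of 1.62 without overlap, and overlapped at 20 °C. The part of these differences in the piRNA levels was not tested.

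Single piRNAs were compared with limma, on log2 values with 0.1 rpm added, after each table had been rescaled by median-of-ratios size factors. Features averaging 1 rpm or more in a table entered the fit, and a call needed a Benjamini-Hochberg adjusted p, taken over every fitted feature, under 0.05. All 847 members passed this filter. At 25 °C, 565 of them (66.7%) were higher and 20 (2.36%) lower in mutants, against 33.6% of all 7070 features higher and 39.3% lower, and 262 did not pass the test. The members' median log2 fold change was 0.35, against 0.49 for the 2038 fitted piRNAs of 1 to 10 rpm and -0.04 for all features. Of those 2038 piRNAs, 1095 were higher and 11 lower. At 20 °C, 54 members (6.38%) were lower and 11 (1.30%) higher, against 3.84% of all 7034 features lower and 2.06% higher, and 782 did not pass the test. The median was 0.05 for members, 0.13 for the 2148 fitted piRNAs of 1 to 10 rpm and -0.01 for all features. Of those 2148 piRNAs, 14 were lower and 54 higher. Among features that are not piRNAs, 5.99% were lower, near the members' share, and 1.99% higher.

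These counts depend on the scaling. Many of the features from which the size factors were taken are piRNAs themselves. Relative to the rpm as deposited, the rescaling moved log2 fold changes by -0.37 at 20 °C and by -0.59 at 25 °C, and by slightly less for features of a few rpm, where the added 0.1 rpm counts. With rpm as deposited, 834 members were higher and 0 lower at 25 °C, also at an unadjusted p under 0.05 (limma, with 51.9% of all features higher and 13.3% lower), with a median of 0.94. At 20 °C, 468 were higher and 3 lower (22.7% of all features higher and 1.81% lower), with a median of 0.41. With size factors from features other than piRNAs, 840 members were higher and 0 lower at 25 °C, also at an unadjusted p under 0.05 (limma, 53.4% of all features higher and 10.4% lower), but at 20 °C only 1 was higher and 4 were lower (1.49% and 1.76% of all features). Size factors from piRNAs alone ask how each member moved relative to the typical piRNA. On that scale, 118 members were higher and 355 lower at 25 °C (14.2% of all features higher and 54.6% lower), and 2 were higher and 68 lower at 20 °C (0.896% and 4.42% of all features). The members' median at 25 °C was positive under 5 of the 6 scalings tried and -0.17 under the scaling to piRNAs.

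**Figure D2:**
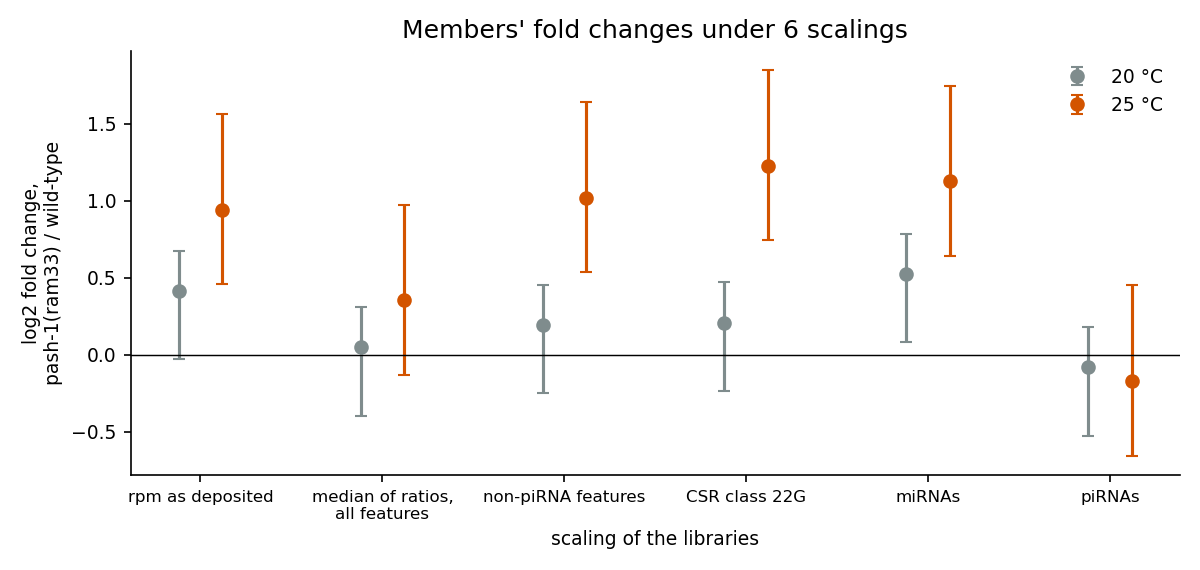
Log2 fold changes of the 847 members, mutants over wild-type, under 6 scalings of the libraries. Points are medians over members and bars run from the 5th to the 95th percentile of members, which is a spread between piRNAs and no error. At 25 °C the median is 0.94 with rpm as deposited, 0.35 after median-of-ratios scaling and -0.17 when libraries are scaled to their piRNAs.

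The fold changes were ordered by the wild-type level of the piRNA, a pattern described here without a test. Bands were cut on wild-type levels throughout, and wild-type is also the denominator of the fold change. This choice can itself favour a downward order and a smaller mutant share of the top piRNAs. No bands were made on mutant levels or on all libraries. After median-of-ratios scaling at 20 °C, the median log2 fold change was 0.10 for members of 10 to 20 rpm, 0.05 for 20 to 50 rpm, 0.03 for 50 to 100 rpm, -0.09 for 100 to 300 rpm and -0.30 for the 25 members of 300 rpm or more. Of those 25, 24 had a negative value and 11 were lower in mutants by the test, and none was higher. Over the same bands at 25 °C the medians were 0.41, 0.35, 0.34, 0.25 and 0.05. A change of scaling moves all bands by nearly the same amount, so the distance between bands stays. When bands were set on wild-type libraries of the other temperature only, the medians ran from 0.10 down to -0.33 at 20 °C and from 0.43 down to 0.10 at 25 °C. The share of rpm held by the most abundant piRNAs was likewise taken from wild-type libraries of the other temperature. At 20 °C, the 12 piRNAs of 300 rpm or more held 14.8%, 14.98% and 15.1% of the rpm of 689 piRNAs of at least 10 rpm in mutants and 17.9%, 17.5% and 16.4% in wild-type. At 25 °C, 38 of 1012 piRNAs held 26.5%, 26.9%, 26.5% and 25.1% in mutants and 30.3%, 29.9%, 30.3% and 30.4% in wild-type. Mutant libraries were below wild-type libraries at both temperatures, with no overlap and no test.

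**Figure D3:**
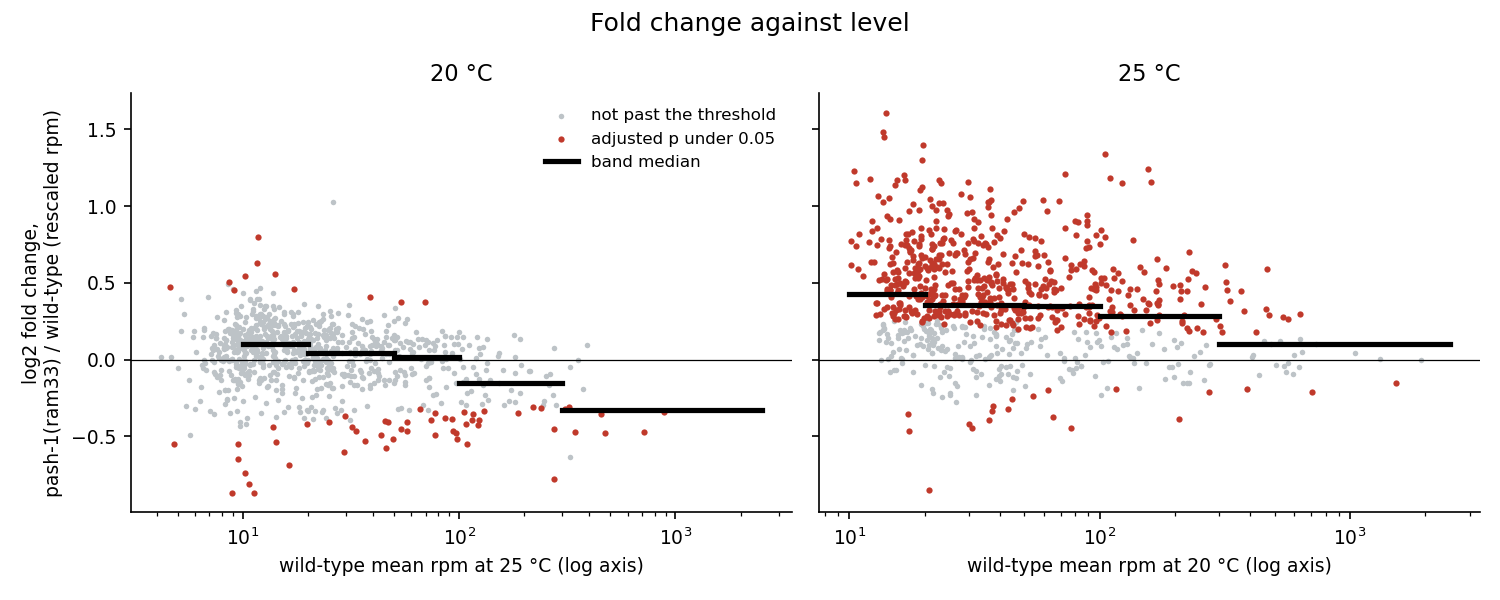
Log2 fold change of each member, mutants over wild-type after median-of-ratios scaling, against its wild-type level at the other temperature (log axis). Red points had an adjusted p under 0.05 in limma, and black lines are medians over all piRNAs of a band of levels. The medians run from 0.10 to -0.33 at 20 °C and from 0.43 to 0.10 at 25 °C. The bands use wild-type levels only, which can favour a downward order.

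The most abundant member was 21ur-3421 (WBGene00049723, minus strand of chromosome IV, 13700230 to 13700250, outside protein-coding genes). It had 1301, 1537, 1442 and 1082 rpm in mutants and 829, 935, 853 and 929 rpm in wild-type at 25 °C, and 1782, 2111 and 1972 rpm in mutants and 1814, 2045 and 1898 rpm in wild-type at 20 °C. The deposited values thus stood apart at 25 °C and overlapped at 20 °C. After median-of-ratios scaling, its log2 fold change was -0.34 ± 0.09 (SE) at 20 °C (limma, adjusted p = 0.0147) and -0.0045 ± 0.07 at 25 °C (adjusted p = 0.958). The second, 21ur-5504 (WBGene00169765, plus strand, 16041087 to 16041107, outside protein-coding genes), had 1293, 1454 and 1514 rpm in mutants and 1627, 1599 and 1367 rpm in wild-type at 20 °C. Its libraries overlapped in deposited rpm, and its rescaled log2 fold change was -0.47 ± 0.10 (limma, adjusted p = 0.00112). The third, 21ur-2290 (WBGene00047906, minus strand, 16231442 to 16231462, in an intron of a gene on the same strand), had 1122, 1219 and 1309 rpm in mutants and 1468, 1317 and 1166 rpm in wild-type at 20 °C. It had a rescaled log2 fold change of -0.48 ± 0.10 (adjusted p = 0.00158), and of 0.0064 ± 0.07 at 25 °C (adjusted p = 0.939).

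Among the next 5 by level, 21ur-5107, 21ur-3363 and 21ur-7174 were also lower at 20 °C after rescaling (log2 fold changes of -0.36, -0.31 and -0.32), while 21ur-5554 (-0.19) and 21ur-5410 (-0.0012) did not pass the test. At 25 °C, 21ur-5410 was the only one of the 8 that was higher after rescaling (0.29 ± 0.06, limma adjusted p = 0.000217). It had 622, 697, 704 and 594 rpm in mutants and 340.2, 354, 351 and 369.5 rpm in wild-type. At the same temperature, 21ur-7174 (-0.21) and 21ur-5504 (-0.15) were lower after rescaling. With rpm as deposited, all 8 were higher at 25 °C, with log2 fold changes of 0.38 to 0.89, and the signs of 21ur-3421, 21ur-5107, 21ur-3363 and 21ur-7174 at 20 °C turned positive (0.0085 to 0.054). Leaving out 1 library ended some of these calls. At 20 °C this held for 21ur-3421 without mutant replicates 1 or 3 or wild-type replicate 2 (limma, adjusted p 0.0793 to 0.132), for 21ur-5107 without mutant replicates 2 or 3 or wild-type replicate 2 (0.0857 to 0.0957), for 21ur-3363 without any mutant replicate or wild-type replicates 1 or 2 (0.0922 to 0.220), and for 21ur-7174 without mutant replicates 1 or 3 or wild-type replicates 1 or 2 (0.0832 to 0.214). At 25 °C it held for 21ur-7174 without mutant replicate 4 (log2 fold change -0.11, adjusted p = 0.0917) and for 21ur-5504 without any library but mutant replicate 2 or wild-type replicate 3 (0.0519 to 0.125).

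The largest decreases at 20 °C were found at very different levels. At the members' median level, 21ur-434 (WBGene00050654, minus strand, 15384654 to 15384674, outside protein-coding genes) had 28.9, 36.8 and 28.7 rpm in mutants and 50.9, 48.7 and 35.5 rpm in wild-type. Replicate 3 of wild-type lay just below the highest mutant library, and after rescaling the libraries did not overlap (log2 fold change -0.87 ± 0.14, limma adjusted p = 4.22e-05). Its neighbour in size of change, 21ur-13099 (WBGene00168017, plus strand, 15780871 to 15780891, outside protein-coding genes), had 21.4, 21.4 and 21.7 rpm in mutants and 36.0, 31.4 and 25.3 rpm in wild-type (-0.87 ± 0.14, adjusted p = 3.63e-05). Of the abundant ones, 21ur-4411 (WBGene00050168, minus strand, 14647014 to 14647034, in an intron of a gene on the same strand) had 511, 447 and 440.4 rpm in mutants and 702, 723 and 471 rpm in wild-type. Here too wild-type replicate 3 was close to the mutants, and the log2 fold change was -0.78 ± 0.18 (adjusted p = 0.0252), a call that was lost without mutant replicate 2 or wild-type replicates 1 or 2 (0.0558 to 0.117). These 3 were also lower in rpm as deposited, and no other member was. The other named decreases, 21ur-3525 (-0.74) and 21ur-6236 (-0.69), did not pass the test in rpm as deposited.

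The largest increases at 20 °C came from members near the threshold. The piRNA 21ur-3992 (WBGene00048721, plus strand, 15214892 to 15214912, in an intron of a gene on the other strand) had 24.1, 37.7 and 31.1 rpm in mutants and 9.44, 12.7 and 20.7 rpm in wild-type. Its log2 fold change was 0.80 ± 0.18 (limma, adjusted p = 0.00595). The others were 21ur-801 (0.63), 21ur-1051 (0.56), 21ur-5413 (0.54) and 21ur-6007 (0.51), with 18.6 to 32.5 rpm in mutants and 6.27 to 16.9 rpm in wild-type. Each of these 5 calls was lost without 1 or more of the libraries: 21ur-3992 without wild-type replicate 2 (limma, adjusted p = 0.0647), 21ur-801 without mutant replicates 1 or 3 or wild-type replicate 1 (0.133 to 0.203), 21ur-1051 without mutant replicates 2 or 3 or wild-type replicate 2 (0.0600 to 0.0776), 21ur-5413 without mutant replicates 1 or 2 or wild-type replicate 2 (0.0690 to 0.240), and 21ur-6007 without any library but wild-type replicate 3 (0.0919 to 0.218). A higher estimate, 1.03 ± 0.44 for 21ur-4357, singled out after its values were seen, did not pass the test (limma, adjusted p = 0.326), with 50.6 ± 11.1 rpm in mutants and 21.4 ± 13.4 rpm in wild-type (SD, n = 3 each).

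One wild-type library weighed on these counts. At 20 °C, wild-type replicate 3 was the lowest of the 3 wild-type libraries for 47 of the 54 members called lower, though for only 243 of all 847 members. Without it, 101 members were lower and 65 higher, against 6.51% and 5.53% of all features, and all 54 and 11 of the first calls were among them. The calls over all features thus grew as well. Leaving out mutant replicate 1 gave 31 lower and 2 higher members (3.04% and 0.896% of all features), mutant replicate 2 gave 32 and 3 (2.9% and 0.967%), and mutant replicate 3 gave 22 and 3 (2.83% and 1.07%). Leaving out wild-type replicate 1 gave 44 lower and 4 higher members (3.24% and 1.85% of all features), and wild-type replicate 2 gave 24 and 2 (2.84% and 1.32%). The order of the level bands was the same without wild-type replicate 3, with medians of 0.14, 0.07, 0.02, -0.13 and -0.37.

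The largest increases at 25 °C were in members of 11.7 to 69.8 rpm in wild-type. The piRNA 21ur-1258 (WBGene00046264, plus strand, 14392623 to 14392643, outside protein-coding genes) had 43.0, 49.6, 51.3 and 54.0 rpm in mutants and 9.97, 13.2, 11.01 and 8.97 rpm in wild-type. Its log2 fold change was 1.61 ± 0.11 after rescaling (limma, adjusted p = 7.87e-14) and 2.20 in rpm as deposited. Next came 21ur-5413 (WBGene00045798, minus strand, 14000578 to 14000598, in an intron of a gene on the other strand), with 37.7, 46.2, 45.0 and 43.1 rpm in mutants and 11.2, 11.3, 9.70 and 8.55 rpm in wild-type (1.49 ± 0.10, adjusted p = 1.23e-13). It was also among the increases at 20 °C. Then came 21ur-5897 (1.45 ± 0.10) and 21ur-5437 (1.40 ± 0.11). The most abundant of this group, 21ur-2814 (WBGene00046335, plus strand, 16167638 to 16167658, outside protein-coding genes), had 170.2, 177, 160.1 and 153 rpm in mutants and 48.3, 43.3, 39.1 and 42.7 rpm in wild-type (1.34 ± 0.07, adjusted p = 1.59e-15). None of these 5 overlapped between strains, and each was also higher when libraries were scaled to their piRNAs.

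The decreases at 25 °C were smaller and rested on the scaling. The piRNA 21ur-3956 (WBGene00048504, minus strand, 15205385 to 15205405, outside protein-coding genes) had 9.90, 11.3, 11.5 and 6.96 rpm in mutants and 11.1, 14.7, 9.48 and 12.4 rpm in wild-type, which overlap. It was the only member whose deposited log2 fold change at 25 °C was negative (-0.27, limma adjusted p = 0.115), and after rescaling it was -0.85 ± 0.14 (adjusted p = 2.94e-06). With size factors from CSR class 22G features its sign turned, to 0.017. The others, 21ur-13099 (-0.44), 21ur-4102 (-0.39), 21ur-5288 (-0.37) and 21ur-2644 (-0.33), were lower only after median-of-ratios scaling or scaling to piRNAs, and were positive with rpm as deposited (0.14 to 0.25). Mutant replicate 4 was the lowest mutant library for 18 of the 20 members called lower. Without it 12 members were lower, against 38.2% of all features, and without wild-type replicate 2 there were 13, against 38.7%.

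**Figure D4:**
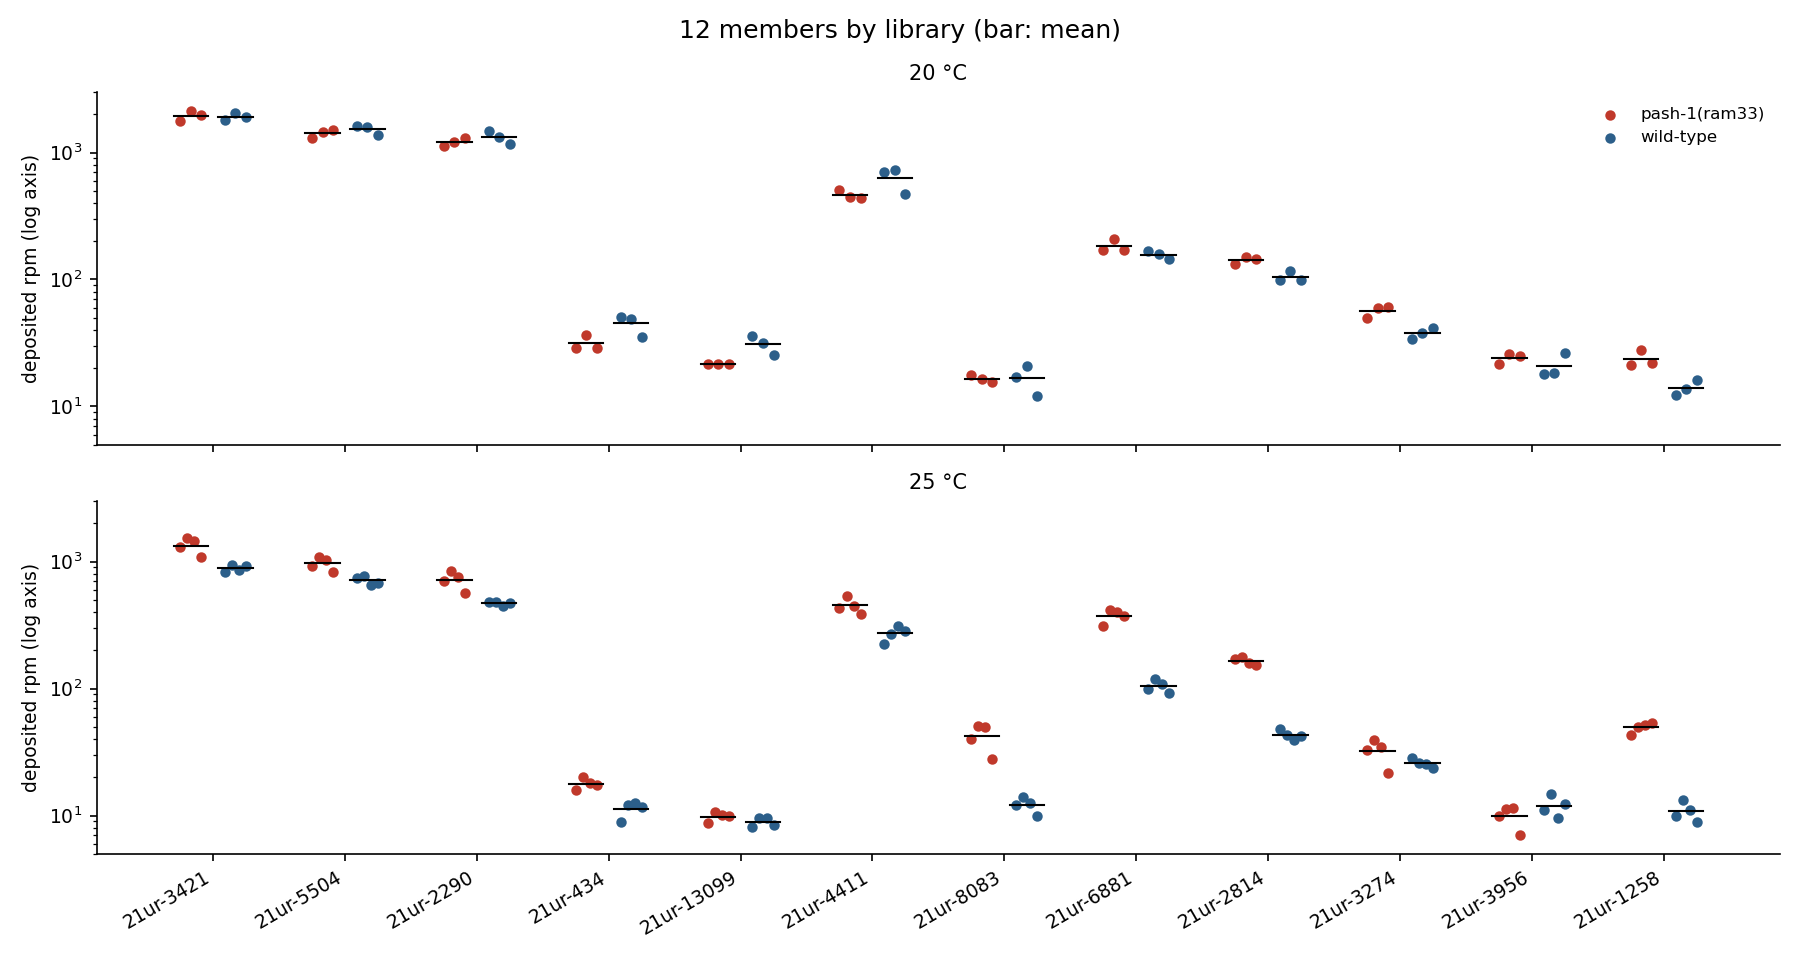
Deposited rpm (log axis) of 12 members in every library at 20 °C (top) and 25 °C (bottom), with mutants left of wild-type and a bar at the mean. The 3 most abundant overlap between strains at 20 °C and stand apart at 25 °C, and 21ur-1258, 21ur-2814, 21ur-6881 and 21ur-8083 have the widest gaps at 25 °C.

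The mutant effect was more positive at 25 °C than at 20 °C for many members. Tested as an interaction term in limma over all 14 libraries, 419 of the 847 members (49.5%) had a more positive effect at 25 °C and 3 a more negative one, against 15.5% and 22.5% of 6396 features. The members' median interaction was 0.37 on the log2 scale, against 0.39 for the 2033 fitted piRNAs of 1 to 10 rpm. Of those 2033, 442 (21.7%) were more positive and 6 more negative. For features that are not piRNAs the median was -0.64, with 2.76% more positive and 43.8% more negative. With rpm as deposited the limma counts were 569 and 0 (2 more negative at an unadjusted p under 0.05), against 22.5% and 12.7% of all features. With size factors from piRNAs they were 71 and 78, against 3.52% and 36.7%, so the direction of the group again rested on the scaling. For the summed measures, the change of the ratio to CSR class 22G siRNAs between temperatures was 1.12 on the log2 scale (exact permutation of strains within temperature, p = 0.0186, adjusted over 5 measures 0.0571). For WAGO class 22G siRNAs it was 0.58 (exact permutation p = 0.0229, adjusted 0.0571), for the deposited sum 0.65 (p = 0.07) and for the ratio to miRNAs 0.75 (p = 0.106), so none passed after adjustment.

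The largest positive interaction was in 21ur-8083 (WBGene00173266, plus strand, 14514356 to 14514376, outside protein-coding genes). It had 39.8, 51.1, 49.6 and 28.0 rpm in mutants and 12.1, 13.98, 12.6 and 9.86 rpm in wild-type at 25 °C. At 20 °C it had 17.6, 16.6 and 15.4 rpm in mutants and 17.2, 20.7 and 12.2 rpm in wild-type, which overlap. The interaction was 1.52 ± 0.23 (limma, adjusted p = 1.25e-05). For 21ur-6881 (WBGene00171498, plus strand, 16374700 to 16374720, outside protein-coding genes), the values were 309, 416, 399 and 372 rpm in mutants and 99.7, 118, 108 and 92.1 rpm in wild-type at 25 °C. The 20 °C values were 169, 207 and 171 rpm in mutants and 168, 158 and 144 rpm in wild-type, and the interaction was 1.39 ± 0.13 (adjusted p = 5.18e-10). The third was 21ur-2814 (1.25 ± 0.13). The 3 negative interactions were 21ur-3992 (-0.80 ± 0.25, adjusted p = 0.0129, and -0.57 with 0.0538 without wild-type replicate 1 of 20 °C), 21ur-3956 (-0.72 ± 0.20, adjusted p = 0.0051) and 21ur-3274 (-0.53 ± 0.17, adjusted p = 0.0132, a piRNA antisense to an exon).

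**Figure D5:**
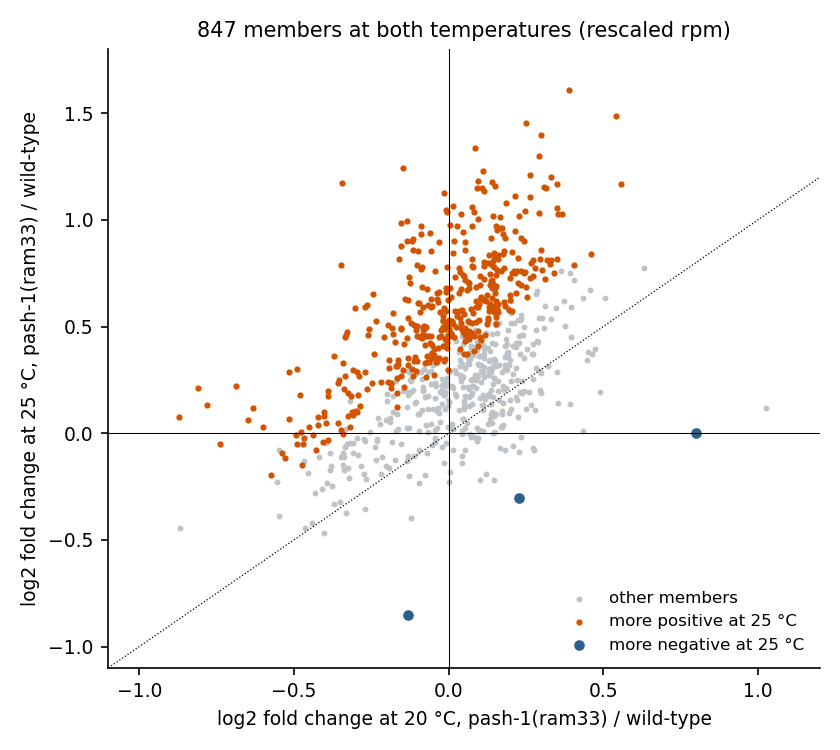
Log2 fold changes of the 847 members at 25 °C against those at 20 °C, mutants over wild-type after median-of-ratios scaling, with a dotted line of equal change. Orange points are the 419 members with a more positive effect at 25 °C and blue points the 3 with a more negative one. The cloud lies mostly above the line, and its place relative to the line moves with the scaling.

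Across the 847 members, the log2 fold changes at the temperatures, from separate libraries, had a Pearson correlation of 0.45. The members share their libraries, so this is a description of these libraries. Of the 54 members lower at 20 °C, 8 were also lower at 25 °C and 6 were higher there, and of the 11 higher at 20 °C, 10 were also higher at 25 °C. At 25 °C, 66.7% of all members were higher and 2.36% lower, against 33.6% and 39.3% of all features. The overlap between temperatures was not tested. The spread of the members was wider than their error at both temperatures, with an SD of the log2 fold changes of 0.34 at 25 °C and 0.22 at 20 °C, against median SEs of 0.10 and 0.12.

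Between temperatures, the tables were normalized separately, so levels are set side by side with no test. In mutants, 596 of 847 members (70.4%) had a lower mean deposited rpm at 25 °C than at 20 °C, against 64.8% of the 6396 features fitted at both temperatures, and the members' median was 1.19-fold lower. In wild-type 838 members (98.9%) were lower, against 58.6% of these features, and the median was 1.79-fold lower. Of the features, 2033 were piRNAs of 1 to 10 rpm, of which 59.0% were lower in mutants and 91.7% in wild-type. Another 3263 were not piRNAs, and of these 69.9% were lower in mutants and 25.7% in wild-type. All 25 °C libraries were below all 20 °C libraries for 389 members in mutants, against 25.8% of all these features, and for 745 members in wild-type, against 32.1%. Among the piRNAs of 1 to 10 rpm this held for 589 in mutants and 1120 in wild-type. Age in hours and temperature changed together and cannot be told apart.

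Within the members, position went with small differences. At 25 °C, 26 of the 51 members between 4 and 7 Mb were higher (51.0%, median log2 fold change 0.26), against 539 of the 796 between 13 and 18 Mb (67.7%, median 0.36). Their median wild-type levels were 18.9 and 26.4 rpm. At 20 °C the medians were 0.06 and 0.05. On the plus strand 295 of 413 members (71.4%) were higher at 25 °C and on the minus strand 270 of 434 (62.2%). For members in introns of the same strand, introns of the other strand and outside protein-coding genes, the shares were 62.8%, 67.7% and 67.6%. These differences were not tested.

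The genes of the piRNA pathway could be followed only through the 22G siRNAs that match them, not through their mRNAs. Of 32 genes listed for the making of piRNAs, their Argonautes and downstream steps, 9 had a 22G feature of their name in the tables, all of the CSR class, and 8 were fitted. At 20 °C, 0 of 8 passed the test (limma, 1 of 8 at an unadjusted p under 0.05), and at 25 °C 7 of 8 were lower after median-of-ratios scaling, against 2474 of 3032 fitted 22G features. The siRNAs matching *csr-1* itself (the Argonaute of this class) had a log2 fold change of -0.96 ± 0.10, and those matching *pgl-1* and *glh-1* (P granule components) of -0.80 ± 0.10 and -0.65 ± 0.09. With rpm as deposited these 3 values were -0.38, -0.21 and -0.06. The siRNAs matching *pid-3* (in the complex that matures piRNA precursors) had -1.16 ± 0.19, and -0.59 with rpm as deposited.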

How the data were processed

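Small RNA libraries were made from total RNA with the NEBNext kit, with 3′ ligation at a lower temperature for longer to catch methylated small RNAs, which include piRNAs. The authors ran tinyRNA, with fastp for trimming and filtering and bowtie for alignment, on WormBase release WS279. Reads of 18 to 21 nt in sense with their 5′ end at the annotated 5′ end counted as piRNA reads, so other isoforms are not in these values. The authors deposited rpm, read counts scaled to 1000000 reads of the library, in a table per temperature. The authors' own test was the DESeq2 Wald test, on counts.

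Estimated depth was 16400000 to 23400000 reads. Low piRNA values were whole reads in 99.0% to 99.6% of cases (tolerance 0.0075 rpm), but over all features only in 91.8% to 93.8%, so rpm and not counts were tested, which differs from the authors' test. In the 20 °C table each class label stood 1 line off its feature, which was corrected. Replicate libraries varied beyond sampling noise, and the study calls them biological replicates. The labels do not say which cultures they came from, so p-values measure the spread between these libraries.

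Within each table, median-of-ratios size factors rescaled the rpm, 0.1 was added, and log2 values of features averaging 1 rpm or more were fitted with limma 3.58.1 (trend and robust eBayes) in R 4.3.3, with Benjamini-Hochberg adjustment over all features. Fold changes on the log2(rpm + 0.1) scale understate changes of very low features. For sums and ratios, exact permutation tests (two-sided) were run on log2 values, adjusted over 5 measures per temperature. Python 3.11.15, numpy 2.4.6, pandas 2.3.3 and matplotlib 3.10.9 were used. To gauge what the fit can detect, 10 simulations were run per temperature. True log2 changes of 1 were recovered in 82.4% of cases at 20 °C and 92.4% at 25 °C. For true log2 changes of 0.5, only 16.1% and 26.2% were recovered. The changed features were drawn from all features averaging 1 rpm or more, with an assumed noise between libraries. These shares are therefore not the recovery for the members alone, which was not simulated. A member that did not pass the test is not shown to be unchanged. Positions came from the WBcel235 annotation, in which all 847 IDs matched.

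Named piRNAs were the 8 of highest wild-type mean, per temperature up to 5 decreases and 5 increases of largest size past the threshold without overlap of rescaled libraries, 3 interaction terms of each sign, the 3 nearest to the threshold on either side, and 21ur-1. Alternatives were other pseudocounts, filters, scalings, eBayes options, a replicate block, each library left out, and other ways of choosing members. The members and lists were chosen with earlier results of these data known. The authors' library preparation and mapping were not varied. Sequences of the piRNAs were not used here.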

Additional observations from a re-analysis of the deposited data

Results flagged for a closer look

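For 6 members the mutant effect differed between the temperatures by the limma interaction term (adjusted p under 0.05) and was among the 3 largest in its direction. The interaction was 1.52 for 21ur-8083, 1.39 for 21ur-6881 and 1.25 for 21ur-2814, and -0.80 for 21ur-3992, -0.72 for 21ur-3956 and -0.53 for 21ur-3274. With size factors from CSR class 22G features the sign of 21ur-3274 turned, to 0.19.

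The effect on the members' sum relative to CSR class 22G siRNAs was larger at 25 °C than at 20 °C by 1.12 on the log2 scale (exact permutation p = 0.0186, adjusted 0.0571), and relative to WAGO class 22G siRNAs by 0.58 (exact permutation p = 0.0229, adjusted 0.0571). Neither passed after adjustment over the 5 measures.

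At 25 °C a single library stood far from the other 3 of its strain in 4 of 74 groups looked at, and chance flags about 1 in 20 such groups. These were 21ur-7174 in mutant replicate 4 (265 rescaled rpm, the lowest), 21ur-6881 in mutant replicate 1 (261 rescaled rpm, the lowest), 21ur-3992 in wild-type replicate 3 (12.6 rescaled rpm, the lowest), and the members' share of piRNA rpm in 1 wild-type library (83.4%, the lowest).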

How the results depend on the processing

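At 20 °C the counts of members were 54 lower and 11 higher. They were 3 and 468 with rpm as deposited, 4 and 1 with size factors from features other than piRNAs, 3 and 1 from CSR class 22G features, 2 and 686 from miRNAs, and 68 and 2 from piRNAs. Without the trend and robust options of limma's eBayes, 0 were lower and 0 higher, although 63 had an unadjusted p under 0.05. The higher count was 7 with no filter, 22 with members chosen on all 14 libraries, 24 with a member threshold of 5 rpm and 4 with a member threshold of 20 rpm. At 25 °C the counts were 20 lower and 565 higher. The lower count was 0 with rpm as deposited and with size factors from features other than piRNAs, CSR class 22G features or miRNAs, 355 with size factors from piRNAs (118 higher) and 5 without trend and robust options, and the higher count was 336 with a member threshold of 20 rpm. For the interaction, with 3 more negative and 419 more positive, the negative count was 0 with rpm as deposited and with size factors from features other than piRNAs, CSR class 22G features or miRNAs, 78 from piRNAs, and 1 without trend and robust options or with a threshold of 20 rpm. The positive count was 749 with size factors from features other than piRNAs, against 34.8% of 6396 features more positive and 4.16% more negative. It was 814 from CSR class 22G features, 655 from miRNAs, 71 from piRNAs, and 276 with a threshold of 20 rpm. Thresholds change the number of members by construction. The causes of the other shifts were not tested. No share over all features is given for size factors from CSR class 22G features or miRNAs, other filters, other eBayes options or the replicate block. Nor is one given for interactions, or for most 25 °C counts, with 1 library left out. Such counts alone say nothing particular about the members. A scaling, for example, moves all features together.

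With rpm as deposited or size factors from features other than piRNAs, 0 members were lower at 25 °C at an unadjusted p under 0.05 as well. Leaving out 1 library at a time gave 22 to 101 lower and 2 to 65 higher members at 20 °C, 12 to 23 lower and 535 to 577 higher at 25 °C, and 2 to 11 more negative and 345 to 457 more positive interactions. The highest values at 20 °C and the 11 came without wild-type replicate 3 of 20 °C. On the log2 scale the members' sum moved over 0.21 to 0.31 at 20 °C and turned to -0.11 with median-of-ratios size factors. Its ratio to CSR class 22G siRNAs at 20 °C moved over -0.05 to 0.10 and was negative without mutant replicate 2 (-0.024) and without wild-type replicate 1 (-0.048). The other measures kept their sign at both temperatures without any 1 library. At 25 °C the exact permutation p stayed at 0.0286, the smallest value possible with 1 library left out. Groups that do not overlap stay apart when 1 library is left out, so this is no separate check.

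Named piRNAs had 35 called results and 669 values under alternatives, of which 517 kept sign and call, 115 kept the sign but lost the call and 37 turned sign. At 25 °C, 21ur-4102, 21ur-5288, 21ur-2644 and 21ur-13099 turned positive with rpm as deposited (0.20, 0.22, 0.25 and 0.14), with size factors from features other than piRNAs (0.28, 0.29, 0.33 and 0.22), from CSR class 22G features (0.49, 0.50, 0.54 and 0.42) and from miRNAs (0.39, 0.40, 0.44 and 0.32). With CSR class 22G size factors, 21ur-3956 turned to 0.017 at 25 °C and the interaction of 21ur-3274 to 0.19. Of the most abundant members, 21ur-5504 and 21ur-7174 turned positive at 25 °C with rpm as deposited (0.44 and 0.38) and with size factors from features other than piRNAs (0.52 and 0.46), CSR class 22G features (0.73 and 0.67) or miRNAs (0.63 and 0.57), and 21ur-5410 turned to -0.23 with those from piRNAs. At 20 °C, 21ur-3421, 21ur-5107, 21ur-3363 and 21ur-7174 turned positive with rpm as deposited (0.025, 0.0085, 0.054 and 0.044) and with miRNA size factors (0.14, 0.12, 0.17 and 0.16), as did 21ur-5504 (0.0043) and 21ur-2290 (0.00047) with the last. Whether the replicate numbers pair the samples is not known. Deviations of same-numbered libraries correlated at -0.15 to 0.10 at 20 °C and -0.03 to 0.03 at 25 °C. Those of other pairs correlated at -0.21 to 0.23 at 20 °C and -0.08 to 0.10 at 25 °C. With so few libraries these values cannot decide it. With the replicate number as a block, 69 were lower and 20 higher at 20 °C, 25 and 571 at 25 °C, and 3 and 420 in the interaction. No share over all features was taken for these block counts. Depth limits members near 10 rpm to 164 reads in the shallowest library.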

Other observations

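The feature named 21ur-1 (chromosome IV, 16687107 to 16687127, plus strand) was listed at 0 rpm in all 14 libraries, as was its neighbour 21ur-15371, whose 5′ end lies 4 nt away. In all, 3086 of the 15363 piRNAs were listed at 0 in every library. The study normalized some of its qRT-PCR to a piRNA called 21UR-1, and whether that assay reads the feature of this name was not tested.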
